A study of Mus musculus with 30 samples.

Results

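The genes of MHC class II antigen presentation were followed across 30 expression arrays of mouse CD11b+ cells, 3 arrays in each of 10 groups. The set held 8 genes chosen by name, H2-Aa, H2-Ab1, H2-Eb1, H2-DMa, H2-Oa, H2-Ob, Cd74 and Ciita. Among the probe sets annotated to a single gene symbol, the brightest on average over the 30 arrays stood for each gene, and all 8 were found among the 18194 genes measured in this way. Their Entrez Gene identifiers were 14960 (H2-Aa), 14961 (H2-Ab1), 14969 (H2-Eb1), 14998 (H2-DMa), 15001 (H2-Oa), 15002 (H2-Ob), 16149 (Cd74) and 12265 (Ciita). Values are log2 expression from the robust multi-array average (RMA), so a difference of 1 is a 2-fold change. Levels are compared between groups for 1 probe set at a time, never between genes.

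CD11b is an integrin chain carried by most myeloid cells, and the cells were enriched by magnetic sorting and hybridized without further separation. The healthy groups were spleens of BALB/c and of C57BL/6 mice. The BALB/c tumor groups were the spleen and the tumor infiltrate of mice with C26-GM, a colon carcinoma that secretes GM-CSF, and the infiltrate of 4T1, a mammary carcinoma. The C57BL/6 tumor groups were the infiltrates of EL-4, a T cell lymphoma, and MCA203, a fibrosarcoma. The last groups were fresh BALB/c bone marrow and BALB/c marrow cultured for 4 days with GM-CSF plus IL-6 or with GM-CSF plus G-CSF. The series set healthy spleen of the same strain as reference for the tumor-induced cells, and fresh marrow as reference for the cultures. The labels give no age, no number of animals per array, and no statement that arrays of a group came from separate animals, so p-values measure the spread between arrays only.

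Class II molecules are pairs of an alpha and a beta chain that carry peptides from the endosomal route to the surface for CD4 T cells. H2-Aa and H2-Ab1 encode both chains of the A molecule and H2-Eb1 the beta chain of the E molecule. Cd74, the invariant chain, blocks the groove until the molecule reaches the endosome, where the DM pair, with H2-DMa as its alpha chain, exchanges the remaining fragment for peptide. H2-Oa and H2-Ob form DO, an inhibitor of DM found mainly in B cells and some dendritic cells. Ciita is the coactivator that switches the whole set on, through factors bound to the X and Y boxes of class II promoters.

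The promoter sequences show letters shared by 4 of these genes. RefSeq promoter windows (GRCm38.p6, 250 bases before to 50 after the annotated start) were given for 5 of the 8 genes, H2-Aa, H2-Eb1, H2-DMa, H2-Oa and H2-Ob. They were searched on both strands for an X box core, CNNGCAAC, and a Y box core, TGATTGG, letters that were chosen after these windows had been read. The X core was in 11.2% of all 32851 windows and the Y core in 7.82%, but the X core followed by the Y core on the same strand, 20 to 50 bases apart counted start to start, was in 35 windows (0.107%). Those windows belonged to 31 of 27025 genes, among them H2-Eb2 but not Cd74. That 4 of the 5 genes shown are among them was fixed by the choice of letters, and Cd74, which lacks the pair, was left out, so the count supports nothing. The 120 bases from -150 to -31 of the 4 are printed 5′ to 3′ on the coding strand with the X core and then the Y core in capitals, since the spacing and the letters are what they share.
H2-Aa, chr17:34287854-34287973, minus strand: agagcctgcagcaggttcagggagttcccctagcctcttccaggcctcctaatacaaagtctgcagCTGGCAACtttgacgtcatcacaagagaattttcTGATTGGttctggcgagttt
H2-Eb1, chr17:34305717-34305836, plus strand: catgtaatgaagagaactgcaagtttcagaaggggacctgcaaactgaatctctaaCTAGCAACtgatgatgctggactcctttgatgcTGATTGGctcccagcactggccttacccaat
H2-Oa, chr17:34092229-34092348, plus strand: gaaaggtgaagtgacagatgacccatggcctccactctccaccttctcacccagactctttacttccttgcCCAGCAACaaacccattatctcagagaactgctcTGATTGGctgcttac
H2-Ob, chr17:34238755-34238874, plus strand: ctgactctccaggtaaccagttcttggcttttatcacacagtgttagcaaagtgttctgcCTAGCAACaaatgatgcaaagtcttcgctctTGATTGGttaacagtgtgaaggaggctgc

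Counted from the annotated start, the X core began at -84 in H2-Aa, -94 in H2-Eb1, -79 in H2-Oa and -90 in H2-Ob. The Y core began 34 bases further on in H2-Aa and H2-Oa, 33 in H2-Eb1 and 31 in H2-Ob. The window of H2-DMa held only an X core, on the opposite strand, at position -7. A match of letters is a description of the sequence and no evidence that a factor bound there.

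**Figure D1:**
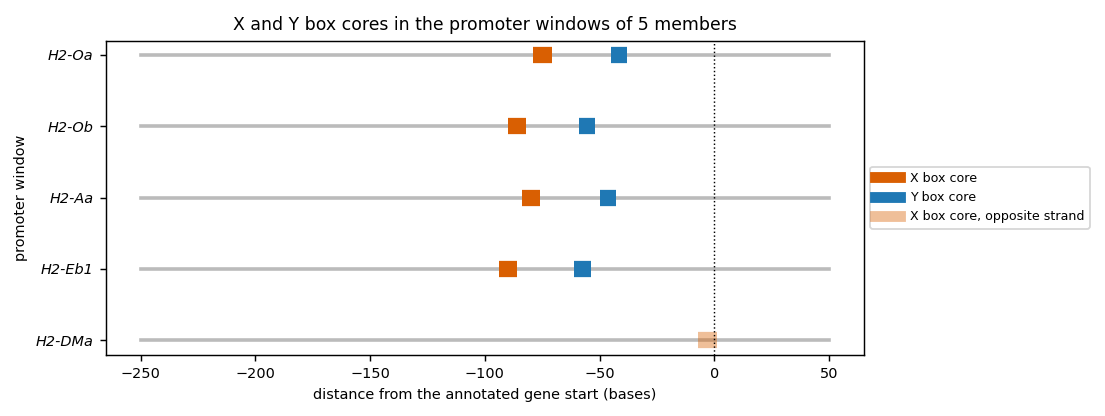
X box core (orange) and Y box core (blue) in the promoter windows of 5 class II genes, drawn by distance in bases from the annotated start (dotted line). H2-Oa, H2-Ob, H2-Aa and H2-Eb1 hold both cores 31 to 34 bases apart, and H2-DMa holds an X core on the opposite strand alone (pale). Cd74, which lacks the pair, is not drawn.

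All arrays had signal for the sorting marker. Itgam, which encodes CD11b, ranged from 9.15 to 11.61 and Ptprc, the leukocyte marker CD45, from 11.53 to 13.17, and the lowest Itgam value was that of the third C26-GM tumor array. That array also had the largest difference between the 3′ and 5′ actin probe sets (2.42). Xist, an RNA made from the inactive X chromosome, was 5.15 to 6.47 in both C26-GM groups and 10.06 to 11.12 everywhere else, while Eif2s3y, a gene of the Y chromosome, was 8.11 to 8.95 in both C26-GM groups and 2.16 to 2.70 everywhere else. These are the levels of male mice in the C26-GM groups and of female mice in the others. The labels give no sex, and in every comparison of a C26-GM group with another group the tumor and sex cannot be told apart. The 6 culture arrays fell into narrow arrays (SD of all log2 values 1.96 to 1.98, IL-6 replicates 1 and 2 and G-CSF replicates 1 and 3) and wide ones (IL-6 replicate 3 and G-CSF replicate 2).

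The E alpha chain H2-Ea, not one of the 8, tests the strain labels, because C57BL/6 mice carry a deletion that silences it. The title and strain fields of 3 spleen arrays give C57BL/6 while their source and description fields give BALB/c. H2-Ea was at 12.81, 12.97 and 13.05 on the BALB/c spleen arrays and at 6.60, 6.93 and 6.89 on these 3 arrays. The groups lay far apart (log2 difference -6.13 ± 0.22, standard error of the limma fit, adjusted p = 4.3e-17), as the strain field has it. In the other C57BL/6 groups H2-Ea was at 6.42, 6.63 and 6.23 (EL-4) and at 6.48, 6.82 and 7.34 (MCA203), against 9.35 to 12.31 on all BALB/c arrays from tumor hosts, marrow and culture. H2-Eb1, whose product pairs with it, differed by 0.03 ± 0.23 between the healthy spleens.

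**Figure D2:**
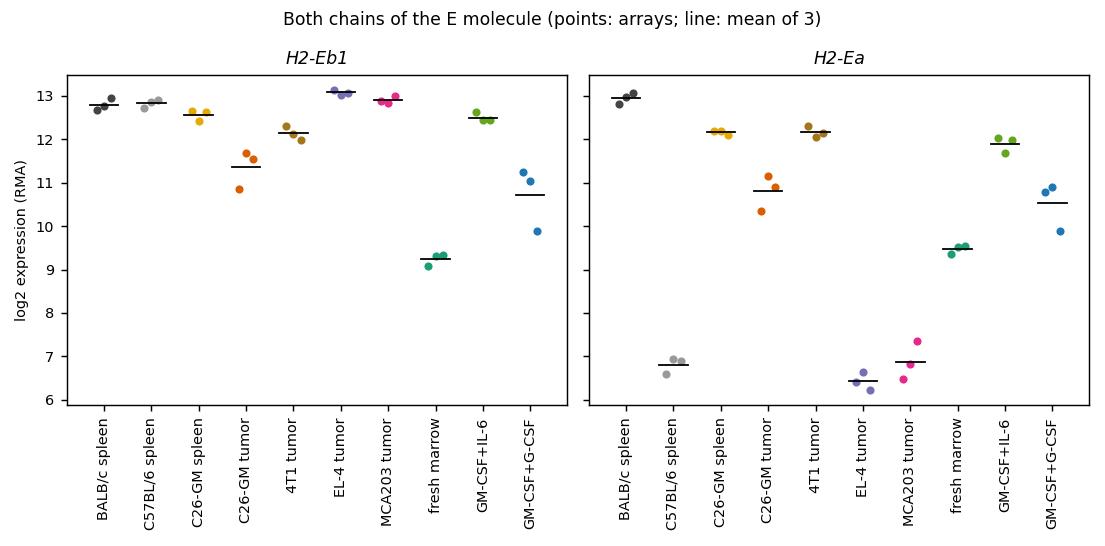
Log2 expression of H2-Ea and H2-Eb1 on each array (points) with the mean of 3 (line), by group. H2-Ea lies between 6.23 and 7.34 on the 9 C57BL/6 arrays and above 9.3 on the BALB/c arrays, while H2-Eb1 lies between 12.67 and 12.94 on all 6 healthy spleen arrays.

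Between the healthy spleens 0 of the 8 genes passed the test of adjusted p below 0.05 and at least a 2-fold change, where 1.4% of all genes did (limma, Benjamini-Hochberg over all genes). At an unadjusted p below 0.05 the count was 1, H2-Oa, which was at 10.06, 9.94 and 10.21 in BALB/c and at 10.48, 10.63 and 10.76 in C57BL/6 (0.56 ± 0.22, adjusted p = 0.32). The differences of the other 7 lay between -0.18 for H2-Ob and 0.38 for Ciita. Probe sets did not all concur for H2-Aa: its least bright probe set was 3.54 higher in C57BL/6, the second least bright 0.47 higher, and the remaining pair differed by -0.07 and -0.21. The strain difference of H2-Aa is therefore read from the brightest probe set only. The least bright of 3 Ciita probe sets was 1.006 higher in C57BL/6, beside 0.38 and 0.45 for the others.

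**Figure D3:**
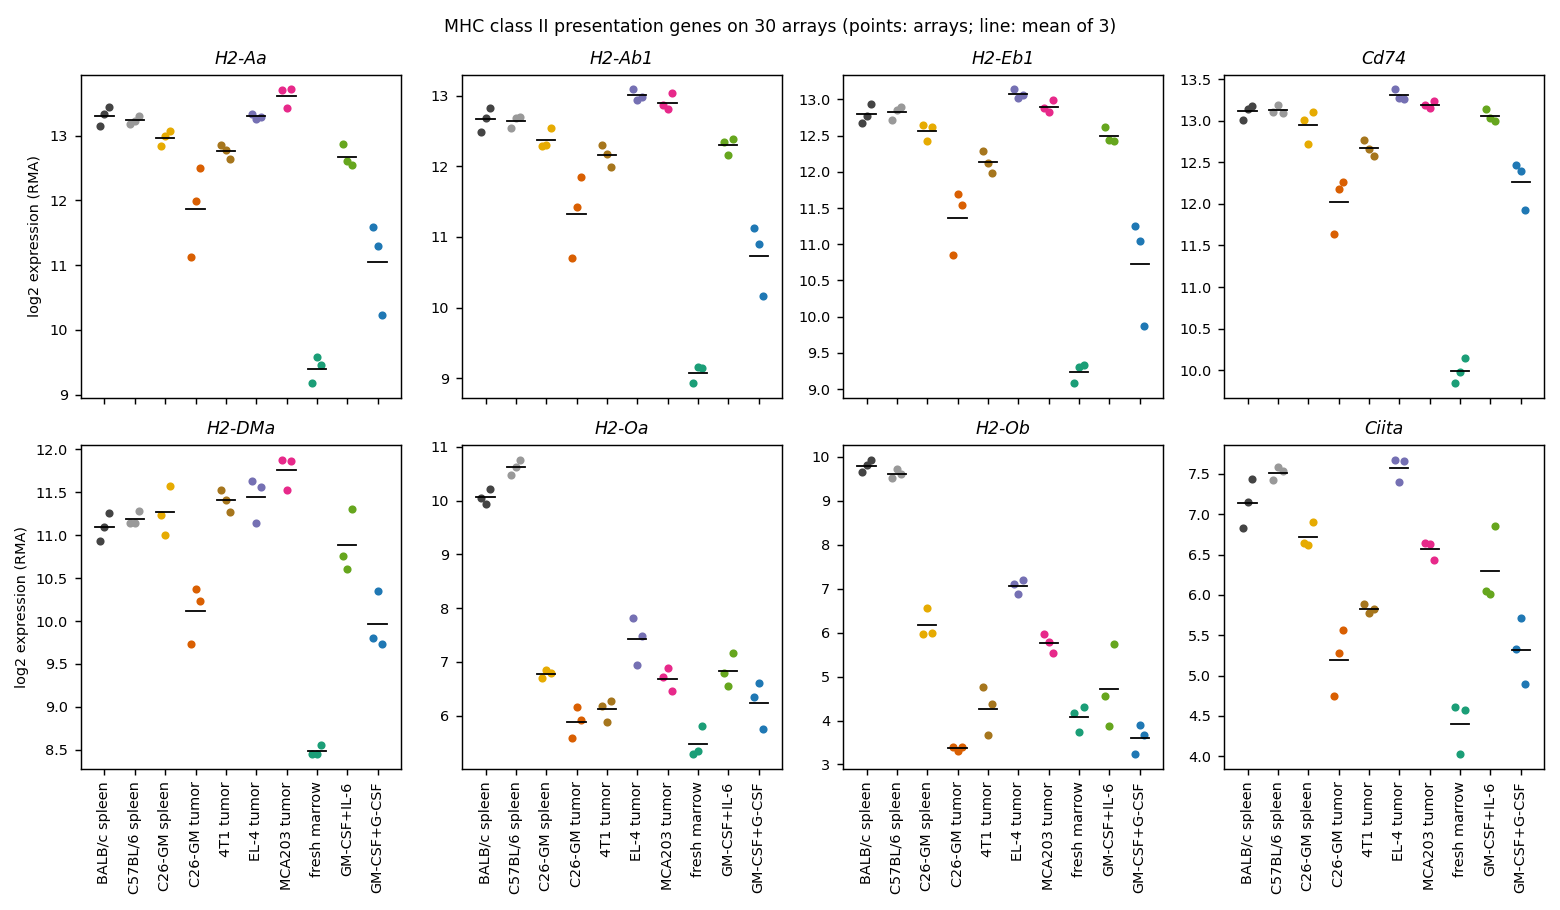
Log2 expression of the 8 genes on all 30 arrays (points) with the mean of each group of 3 (line). H2-Aa, H2-Ab1, H2-Eb1, H2-DMa and Cd74 are lowest in fresh marrow and high in spleens and in most infiltrates, whereas H2-Oa and H2-Ob stand high in the healthy spleens alone.

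The DO chains fell in every tumor-host group, and they were the members with the largest falls there. H2-Oa, the alpha chain, was at 6.71, 6.85 and 6.79 in the C26-GM spleen, at 5.58, 6.16 and 5.92 in the C26-GM tumor and at 6.18, 5.89 and 6.28 in the 4T1 tumor. In the C57BL/6 hosts it was at 7.82, 6.95 and 7.49 (EL-4) and at 6.71, 6.88 and 6.46 (MCA203). No array of a tumor host reached the lowest healthy value of 9.94. The changes against healthy spleen of the same strain were -3.29 ± 0.22 in the C26-GM spleen (9.77-fold lower, adjusted p = 2.3e-11), -4.18 ± 0.22 in the C26-GM tumor (18.2-fold, 4.05e-14), -3.95 ± 0.22 in 4T1 (15.5-fold, 1.48e-13), -3.20 ± 0.22 in EL-4 (9.21-fold, 1.57e-11) and -3.94 ± 0.22 in MCA203 (15.3-fold, 1.4e-13), all adjusted p-values from limma.

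H2-Ob, the beta chain, was at 9.65, 9.82 and 9.93 in BALB/c and at 9.51, 9.72 and 9.61 in C57BL/6 healthy spleens. It was at 5.97, 6.56 and 6.00 in the C26-GM spleen, at 3.39, 3.32 and 3.39 in the C26-GM tumor, at 4.76, 3.66 and 4.37 in 4T1, at 7.11, 6.88 and 7.20 in EL-4 and at 5.98, 5.78 and 5.54 in MCA203. Here too no tumor-host array overlapped the healthy ones, and the C26-GM tumor arrays were among the lowest of all 30. The changes were -3.62 ± 0.30 in the C26-GM spleen (12.3-fold lower, adjusted p = 1.55e-09), -6.43 ± 0.30 in the C26-GM tumor (4.06e-15), -5.54 ± 0.30 in 4T1 (1.08e-13), -2.55 ± 0.30 in EL-4 (5.86-fold, 2.87e-07) and -3.85 ± 0.30 in MCA203 (14.4-fold, 1.59e-10). In the C26-GM tumor and 4T1 its values lay below the median of all probe sets on an array (4.85 to 5.15 over the 30 arrays), so no fold is given there. A second H2-Ob probe set carries several gene symbols and was not used.

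H2-Oa and H2-Ob were the only members that passed in 3 of the 5 comparisons. In the C26-GM spleen 2 of 8 members fell, against 3.83% of all genes (5.51% when each array was instead centred on 8 housekeeping genes), and the median change of the 8 was -0.32 against 0.09 for all genes. In EL-4 the share was 2 of 8 against 4.4% (9.52% with that centring), with a median of 0.12 against 0.01. In MCA203 it was 2 of 8 against 5.42% (9.23%, where Ciita made 3), with a median of 0.07 against 0.14. In 4T1 3 of 8 fell, against 5.44% (9.22%, where H2-Eb1 made 4), Ciita being the other, with a median of -0.61 against -0.01. In the C26-GM tumor 7 of 8 fell, against 7.13%, with a median of -1.44 against 0.11. The 3 BALB/c comparisons share the same healthy arrays, as do both C57BL/6 comparisons, and infiltrates had no reference other than spleen, so the tumor and the organ cannot be told apart.

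Markers of B cells fell beside the DO chains in the tumor hosts. Of 11 measured B cell markers 10 fell and 0 rose in the C26-GM spleen (median change -2.09), 10 in the C26-GM tumor (-3.28), 10 in 4T1 (-2.98), 9 in EL-4 (-2.04) and 10 in MCA203 (-3.16). Their mean level was 7.57 to 7.78 on the BALB/c and 8.32 to 8.46 on the C57BL/6 spleen arrays, 5.23 to 5.39 in the C26-GM spleen, 4.50 to 4.78 in the C26-GM tumor, 4.50 to 4.93 in 4T1, 6.52 to 6.55 in EL-4 and 4.89 to 5.05 in MCA203. EL-4 kept the highest B cell level of the tumor hosts, and it was the tumor-host group with the highest H2-Oa and H2-Ob. Ms4a1, which encodes CD20, was at a mean of 9.55 in BALB/c and 10.37 in C57BL/6 spleens, 8.33 in EL-4 and between 4.06 and 6.07 in the other tumor-host groups. Pax5, a defining transcription factor of B cells, changed in none of the comparisons.

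Over the 30 arrays the correlation with the mean of the 11 B cell markers was 0.923 for H2-Oa and 0.919 for H2-Ob. It was 0.656 for Ciita and between 0.217 and 0.384 for the other 5 genes. With the mean of 10 dendritic cell markers it was as high for the DO chains, 0.935 for H2-Oa and 0.907 for H2-Ob. There it was 0.881 for Ciita and between 0.618 and 0.748 for the other 5. The points share their groups of 3 and the contrast of healthy spleen with the rest, so the coefficients only describe these arrays. Not every group followed the B cell markers. Their mean was 5.38 to 5.54 in fresh marrow, where H2-Ob was at 3.73 to 4.32, against 5.23 to 5.39 and 5.97 to 6.56 in the C26-GM spleen. In the GM-CSF plus IL-6 culture it was 4.63 to 4.97, below fresh marrow, while H2-Oa was 1.36 above fresh marrow. Of 10 measured dendritic cell markers 5 fell in the C26-GM spleen, 7 in the C26-GM tumor, 8 in 4T1, 5 in EL-4 and 6 in MCA203, where Xcr1 rose. Their mean level was 7.94 to 8.33 in healthy spleens and 5.59 to 7.25 in the tumor hosts. The part of B cells and dendritic cells in the fall of the DO chains was not tested, and in bulk samples fewer cells of a type and less RNA per cell cannot be told apart.

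**Figure D4:**
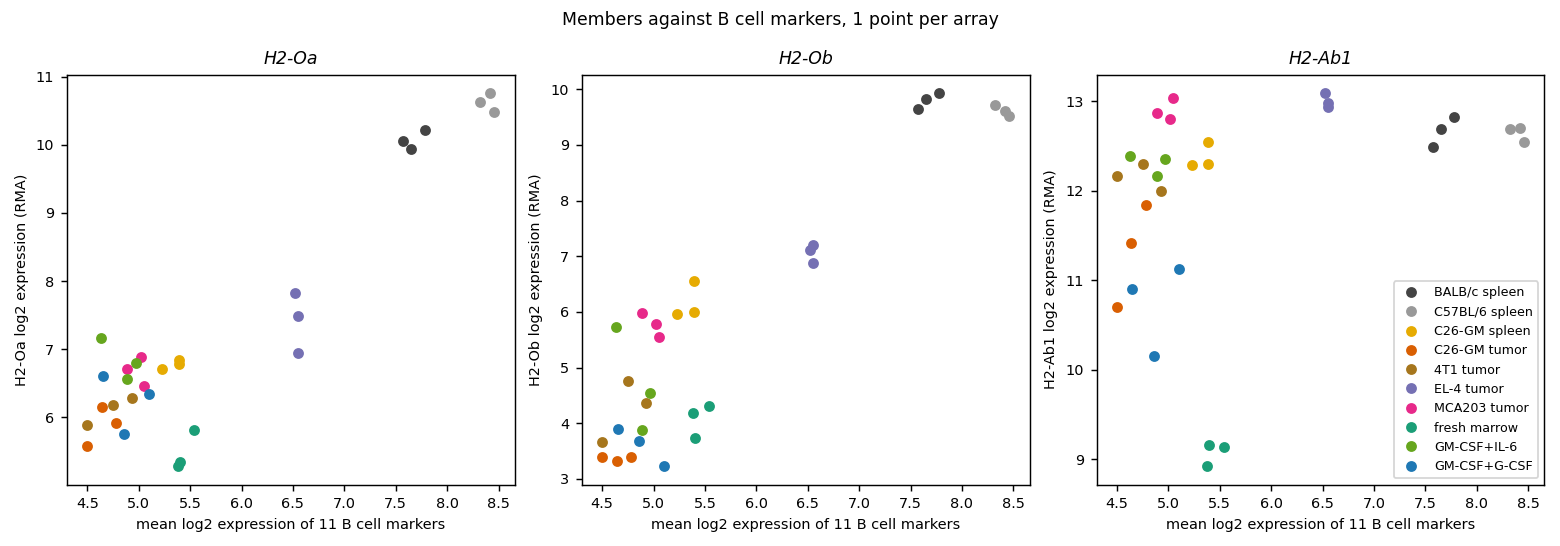
Log2 expression of H2-Oa, H2-Ob and H2-Ab1 on each of the 30 arrays against the mean log2 expression of 11 B cell markers, coloured by group. Among spleens and infiltrates, H2-Oa and H2-Ob rise with the markers from the other tumor hosts through EL-4 to the healthy spleens. Fresh marrow departs from this, with markers at 5.38 to 5.54 and H2-Oa at 5.29 to 5.81, against 5.23 to 5.39 and 6.71 to 6.85 in the C26-GM spleen. H2-Ab1, which spans 8.93 to 13.09, is as high on the EL-4 and MCA203 arrays as on the healthy ones.

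The A and E chains behaved otherwise. H2-Ab1, the A beta chain, was at 12.49, 12.69 and 12.83 in BALB/c spleens and at 12.29, 12.30 and 12.55 in the C26-GM spleen. In the infiltrates it was at 10.70, 11.42 and 11.85 (C26-GM), 12.30, 12.17 and 11.996 (4T1), 13.09, 12.94 and 12.98 (EL-4) and 12.87, 12.81 and 13.04 (MCA203), with C57BL/6 spleens at 12.54, 12.69 and 12.70. The C26-GM tumor arrays lay below all other tumor-host arrays, and the EL-4 and MCA203 arrays lay just above their healthy reference.

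H2-Ab1 fell in the C26-GM tumor (-1.35 ± 0.21, 2.54-fold, adjusted p = 1.92e-05). Its other probe sets fell further, by 2.07 and 1.97. H2-Aa fell too (-1.44 ± 0.26, adjusted p = 1.05e-04), which was at 11.13, 11.99 and 12.50 there and at 13.16, 13.33 and 13.44 in healthy spleens, as did H2-Eb1 (-1.44 ± 0.23, adjusted p = 2.09e-05), at 10.85, 11.69 and 11.54 against 12.67, 12.77 and 12.94. The first C26-GM tumor array was the lowest of its group for all 3 chains, and no tumor array overlapped the healthy ones. In 4T1 the changes were -0.55 (H2-Aa), -0.51 (H2-Ab1) and -0.66 (H2-Eb1), with adjusted p of 0.14, 0.084 and 0.033, none reaching 2-fold. In the C26-GM spleen they lay between -0.34 and -0.23, and in EL-4 and MCA203 between 0.06 and 0.38, with adjusted p of 0.26 or more. The 95% intervals of the EL-4 and MCA203 changes ran from -0.47 to 0.91, so a 2-fold change in either direction lay outside them. The cell markers moved widely in these infiltrates: all 9 neutrophil markers fell in both (mean level 6.82 to 7.83 in EL-4 and 6.63 to 6.99 in MCA203, against 12.06 to 12.18 in spleen), and 5 of 6 T cell markers rose in both (7.89 to 8.07 and 7.74 to 8.14 against 5.86 to 6.09). Of 12 macrophage and monocyte markers 8 fell and 1 rose in the C26-GM tumor (mean level 9.02 to 9.34 against 10.71 to 10.80 in spleen), and in 4T1 3 rose and 1 fell (11.29 to 11.43). Their mean level was also lower in the C26-GM spleen (9.80 to 10.05), where none of the A and E chains passed. Ptprc, which all leukocytes carry, also fell in the C26-GM tumor (-1.21 ± 0.11, adjusted p = 1.52e-09) and in 4T1 (-1.20 ± 0.11, adjusted p = 1.74e-09). It was lower by less than 2-fold in EL-4 (-0.72 ± 0.11), MCA203 (-0.62 ± 0.11) and the C26-GM spleen (-0.55 ± 0.11). Epithelial markers rose in 1 of 5 cases in the C26-GM tumor (mean level 5.89 to 5.99 against 4.67 to 4.78 in spleen) and in 4 of 5 in 4T1 (8.30 to 8.81), and fibroblast markers in 2 of 5 (5.09 to 5.77 against 4.28 to 4.46) and 4 of 5 (6.85 to 7.34). Their mean levels were above spleen in the C57BL/6 infiltrates too. Epithelial markers were at 6.65 to 9.96 (EL-4) and 6.29 to 7.32 (MCA203) against 4.38 to 4.66. Fibroblast markers were at 6.38 to 6.87 and 5.74 to 6.49 against 3.91 to 4.16. The part of these cells in the values of the A and E chains was not tested.

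Cd74, the invariant chain, was at 13.01, 13.15 and 13.18 in BALB/c spleens and at 11.64, 12.18 and 12.26 in the C26-GM tumor. It fell there (-1.09 ± 0.15, adjusted p = 3.9e-06), and without the first C26-GM tumor array the change was below 2-fold (-0.89). In the other tumor-host groups it ran from 12.57 to 13.38, against 13.01 to 13.19 in healthy spleens, and its changes were -0.17 in the C26-GM spleen, -0.44 in 4T1, 0.18 in EL-4 and 0.06 in MCA203. H2-DMa, the DM alpha chain, was at 10.93, 11.10 and 11.26 in BALB/c and at 11.14, 11.14 and 11.28 in C57BL/6 spleens. It was at 9.73, 10.37 and 10.23 in the C26-GM tumor, a change just short of 2-fold (-0.98 ± 0.20, adjusted p = 4.25e-04), and at 11.53, 11.41 and 11.27 in 4T1 (0.31 ± 0.20). In MCA203 it was at 11.88, 11.53 and 11.87, above every healthy C57BL/6 array (0.57 ± 0.20, adjusted p = 0.037, 1.49-fold). Beside these changes of H2-DMa, those of the DO chain H2-Ob were -5.54 in 4T1, -2.55 in EL-4 and -3.85 in MCA203, and the difference between the genes was not tested.

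Ciita, the class II coactivator, fell in both BALB/c infiltrates. It was at 6.83, 7.15 and 7.44 in BALB/c spleens, 6.64, 6.61 and 6.90 in the C26-GM spleen, 4.75, 5.27 and 5.57 in the C26-GM tumor and 5.89, 5.78 and 5.82 in 4T1. It was at 7.43, 7.58 and 7.53 in C57BL/6 spleens, 7.67, 7.40 and 7.66 in EL-4 and 6.64, 6.63 and 6.44 in MCA203. It fell in the C26-GM tumor (-1.94 ± 0.23, adjusted p = 1.69e-07) and in 4T1 (-1.31 ± 0.23, 2.48-fold, adjusted p = 5.66e-05). On the first C26-GM tumor array its value lay below the median of all probe sets (4.88), so no fold is given there. In MCA203 Ciita was lower on every array but by less than 2-fold (-0.95 ± 0.23, adjusted p = 0.0025), and in EL-4 the change was 0.06 ± 0.23. In the C26-GM spleen the 3 Ciita probe sets gave -0.42, -0.40 and -1.19, from the brightest to the least bright. In the infiltrates the second gave -2.12 (C26-GM), -1.39 (4T1), -0.82 (MCA203) and -0.26 (EL-4). The third gave -2.16, -1.999, -2.72 and -2.02 in the same order. The C26-GM spleen, MCA203 and EL-4 values therefore depend on the probe set. In the same infiltrates the changes of Cd74 were -0.44 (4T1) and 0.06 (MCA203).

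**Figure D5:**
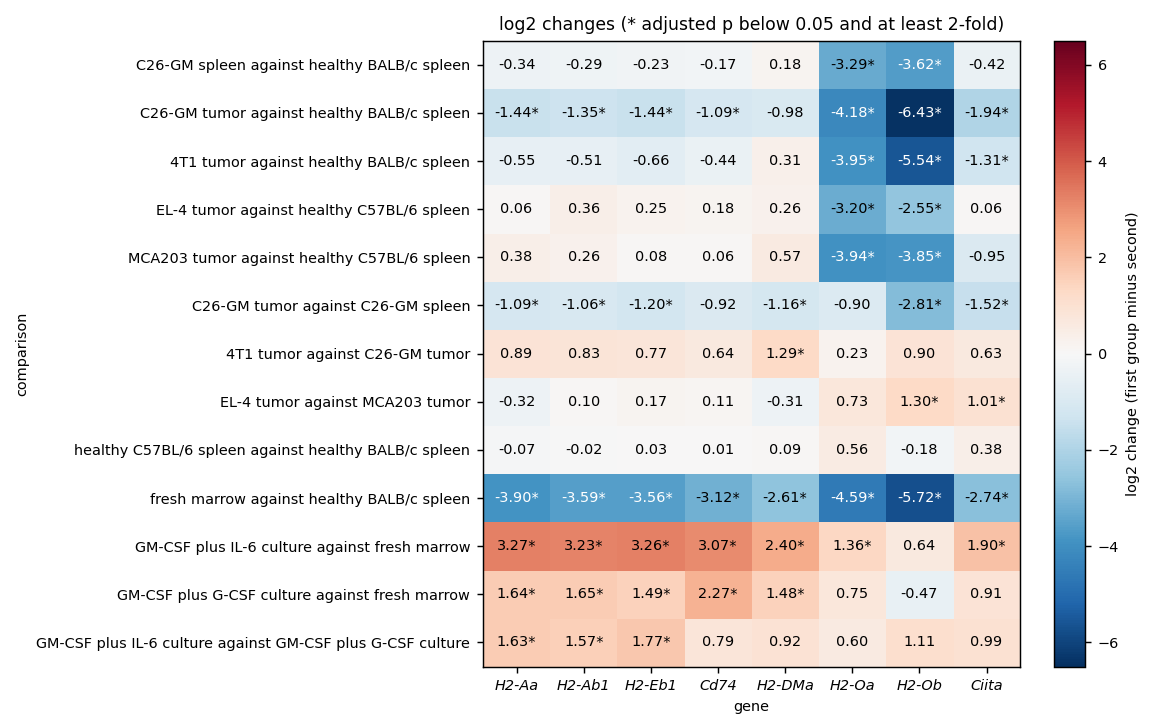
Log2 change of each gene (columns) in each comparison (lines of the grid), first group minus second, with a star where the adjusted p is below 0.05 and the change at least 2-fold. H2-Oa and H2-Ob are blue in all 5 tumor-host comparisons, 7 of the 8 genes fall in the C26-GM tumor and all 8 in fresh marrow, and 7 rise in the GM-CSF plus IL-6 culture.

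The C26-GM tumor was also compared with the spleen of C26-GM hosts, which shared the levels of male mice. The labels do not say that both came from the same animals. Of the 8, 6 fell, against 3.36% of all genes (2.43% with housekeeping centring, where 3 fell). They were H2-Ob (-2.81 ± 0.30, adjusted p = 1.59e-07), Ciita (-1.52 ± 0.23), H2-Eb1 (-1.20 ± 0.23), H2-DMa (-1.16 ± 0.20), H2-Aa (-1.09 ± 0.26) and H2-Ab1 (-1.06 ± 0.21), and the values of Cd74 (-0.92) and H2-Oa (-0.90) were below 2-fold. The other H2-Ab1 probe sets were at -1.86 and -1.79. The count rests on the first tumor array, without which 2 members, H2-Ob (-2.82) and Ciita (-1.30), passed. Without C26-GM spleen replicate 3, H2-Ab1 was at -0.97. Macrophage and monocyte markers fell beside them, 6 of 12 with 1 rise (mean level 9.80 to 10.05 in the spleen and 9.02 to 9.34 in the tumor), as did 5 of 11 B cell and 3 of 10 dendritic cell markers, and their part was not tested.

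Infiltrates of the same strain were compared in pairs. Between 4T1 and C26-GM 1 of 8 passed, against 8.95% of all genes that rose (5.24% with housekeeping centring, where 0 passed and 2 had an unadjusted p below 0.05): H2-DMa was higher in 4T1 (1.29 ± 0.20, adjusted p = 1.34e-05). The brightest probe sets of the other 7 were also higher, by 0.23 (H2-Oa) to 0.90 (H2-Ob). The other probe sets of H2-Ab1 gave more, 1.54 and 1.44 against 0.83, and the least bright one of H2-Aa 1.93 against 0.89, so the size of these differences depends on the probe set. Without the third C26-GM tumor array 3 members passed, H2-Aa (1.20) and H2-Ab1 (1.10) beside H2-DMa, and without 4T1 replicate 2 the count was 2, with H2-Ob (1.20). Macrophage and monocyte markers were higher in 4T1 in 9 of 12 cases (mean level 11.29 to 11.43 against 9.02 to 9.34), as were 3 of 5 epithelial and 3 of 5 fibroblast markers, and their part was not tested. Between EL-4 and MCA203, against 3.88% of all genes, 2 were higher in EL-4, H2-Ob (1.30 ± 0.30, adjusted p = 0.0037) and Ciita (1.009 ± 0.23, adjusted p = 0.0027). The value of Ciita was below 2-fold, between 0.94 and 0.97, without EL-4 replicate 1 or 3 or MCA203 replicate 3. B cell markers were higher in EL-4 as well, 6 of 11 with a median of 1.21, and their part was not tested.

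The effect of a tumor on these genes differed between the C57BL/6 and the BALB/c models. The mean change of EL-4 and MCA203 against C57BL/6 spleen less the mean change of C26-GM and 4T1 tumors against BALB/c spleen was positive for all 8 members. It passed for 5, against 2.83% of all genes that passed upward: H2-Ob (2.78 ± 0.37, adjusted p = 6.76e-06), H2-Ab1 (1.24 ± 0.26, 0.0022), H2-Aa (1.21 ± 0.32, 0.014), H2-Eb1 (1.21 ± 0.28, 0.0053) and Ciita (1.18 ± 0.28, 0.006). Cd74 (0.88 ± 0.19, adjusted p = 0.0025) was below 2-fold, and H2-DMa (0.75) and H2-Oa (0.50) did not pass. Without BALB/c spleen replicate 3, H2-Aa no longer passed. The third Ciita probe set gave -0.29, and with the mean of all its probe sets Ciita was at 0.70. Strain, tumor line and sex cannot be told apart in this comparison, since of the 6 groups in it the C26-GM tumor alone had the levels of male mice (Eif2s3y -3.20, Xist 2.36 by the same contrast, both passing). By that contrast 9 of 9 measured neutrophil markers were lower and 5 of 6 T cell and 6 of 6 NK cell markers higher, and their part was not tested.

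Fresh marrow had the lowest levels of H2-Aa, H2-Ab1, H2-Eb1, H2-DMa, H2-Oa, Cd74 and Ciita among the 10 groups, by their means. All 8 members were lower than in healthy BALB/c spleen, against 7.49% of all genes (11.1% with housekeeping centring). The falls were -5.72 ± 0.30 for H2-Ob and -4.59 ± 0.22 for H2-Oa, -3.90 ± 0.26, -3.59 ± 0.21 and -3.56 ± 0.23 for H2-Aa, H2-Ab1 and H2-Eb1, -3.12 ± 0.15 for Cd74, -2.74 ± 0.23 for Ciita and -2.61 ± 0.20 for H2-DMa. The largest adjusted p of the 8 was that of Ciita (3.67e-10). H2-Ob, at 3.73 to 4.32 in marrow, was again below the array medians, and so was Ciita, at 4.03 to 4.61 (medians 4.90 to 4.94). Macrophage and monocyte markers fell in 11 of 12 cases (mean level 8.56 to 8.89 against 10.71 to 10.80), dendritic cell markers in 8 of 10 (5.35 to 5.39 against 7.94 to 8.26) and B cell markers in 9 of 11 (5.38 to 5.54), while all 5 immature granulocyte markers rose (12.23 to 12.46 against 6.27 to 6.90), and their part was not tested.

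The A and E chains, Cd74 and H2-DMa rose above fresh marrow in both cytokine cultures, and H2-Ob passed in neither. H2-Aa was at 9.17, 9.58 and 9.46 in fresh marrow, 12.88, 12.60 and 12.55 with GM-CSF plus IL-6 and 11.59, 11.30 and 10.24 with GM-CSF plus G-CSF. H2-Ab1 was at 8.93, 9.16 and 9.14, then 12.35, 12.16 and 12.39, and 11.12, 10.90 and 10.16, in the same order. H2-Eb1 was at 9.08, 9.31 and 9.33, then 12.62, 12.44 and 12.43, and 11.25, 11.04 and 9.88. The 3 groups did not overlap for any of these chains, and the third G-CSF array was the lowest of its group each time.

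With GM-CSF plus IL-6 7 of 8 members rose, against 5% of all genes. H2-Aa rose by 3.27 ± 0.26 (9.66-fold, adjusted p = 2.65e-10), H2-Eb1 by 3.26 ± 0.23, H2-Ab1 by 3.23 ± 0.21, Cd74 by 3.07 ± 0.15, H2-DMa by 2.40 ± 0.20, Ciita by 1.90 ± 0.23 and H2-Oa by 1.36 ± 0.22. H2-Ob, at 4.18, 3.73 and 4.32 in marrow and at 4.55, 3.87 and 5.73 in culture, did not pass (0.64 ± 0.30, adjusted p = 0.092). With a term for the array set it was at 1.30 and passed, as did all 8 members, a count given without the share of all genes under that term. The single wide array put it at 1.66, a value with no replicate. In this culture Cd74 lay between 12.99 and 13.14, overlapping the 13.01 to 13.18 of BALB/c spleen, and H2-Oa was at 6.79, 6.56 and 7.16, against 10.06, 9.94 and 10.21 in BALB/c spleen.

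With GM-CSF plus G-CSF 5 of 8 rose, against 4.48% of all genes (6.68% after quantile normalization over all probe sets, which gave 7.49% for the IL-6 culture). Cd74, at 9.84, 9.98 and 10.15 in marrow, 13.14, 13.03 and 12.99 with IL-6 and 12.47, 12.40 and 11.93 with G-CSF, rose most (2.27 ± 0.15, adjusted p = 1.53e-11). H2-Ab1 (1.65 ± 0.21), H2-Aa (1.64 ± 0.26), H2-Eb1 (1.49 ± 0.23) and H2-DMa (1.48 ± 0.20) followed. Ciita, at 5.33, 5.72 and 4.89 against 4.61, 4.03 and 4.57, was higher on every array but below 2-fold (0.91 ± 0.23, adjusted p = 0.0026), H2-Oa was 0.75 ± 0.22 higher with overlapping groups, and H2-Ob was at 3.24, 3.90 and 3.68 (-0.47 ± 0.30). With a term for the array set 7 members passed, H2-Oa (1.10) and Ciita (1.39) among them, again without the share of all genes.

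The IL-6 cocktail gave higher values than the G-CSF cocktail for all 8 members. Of them 3 passed, against 0.456% of all genes: H2-Eb1 (1.77 ± 0.23, 3.42-fold, adjusted p = 4.85e-05), H2-Aa (1.63 ± 0.26, 3.10-fold, 7e-04) and H2-Ab1 (1.57 ± 0.21, 2.98-fold, 8.88e-05). Cd74 (0.79 ± 0.15, adjusted p = 0.006), H2-DMa (0.92 ± 0.20, 0.014) and Ciita (0.99 ± 0.23, 0.022) were below 2-fold with groups that did not overlap. Within the narrow arrays the differences were 1.97, 1.83 and 1.61 for H2-Eb1, H2-Aa and H2-Ab1. Between the wide arrays, 1 against 1 and so with no replicate, they were lower, at 1.39, 1.24 and 1.49, and H2-Aa and H2-Ab1 no longer passed when each lone array was assumed to vary like the other groups. When only the 6 culture arrays entered the fit, limma called 0 members and 2 of all genes, with 7 members at an unadjusted p below 0.05, and the adjusted p of the 3 chains was 0.79, 0.90 and 0.59. Without IL-6 replicate 2 or G-CSF replicate 2 the count was 6, with H2-DMa, H2-Ob and Ciita added. Both cultures share the fresh marrow arrays as reference.

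Of 10 dendritic cell markers 6 rose with IL-6, where 7 members rose, but only 2 with G-CSF, where 5 members rose. Of the same markers 3 were higher with IL-6 than with G-CSF. Their mean level was 5.35 to 5.39 in marrow, 6.86 to 7.12 with IL-6 and 6.23 to 6.53 with G-CSF. Itgax, the CD11c integrin chain of dendritic cells, rose by 4.12 ± 0.23 with IL-6 and by 3.001 ± 0.23 with G-CSF. B cell markers fell in 2 of 11 cases in both cultures (mean level 4.63 to 5.10), and macrophage and monocyte markers rose in 3 and fell in 5 of 12 with IL-6 and rose in 4 and fell in 6 with G-CSF. The part of these cells was not tested.

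The members fell into 2 patterns over the 30 arrays, described here by Pearson correlations whose points share groups of 3. H2-Aa, H2-Ab1 and H2-Eb1 correlated with each other at 0.987 to 0.993, with H2-DMa at 0.940 to 0.956 and with Cd74 at 0.946 to 0.963. H2-Oa and H2-Ob correlated with each other at 0.942 and with those 5 genes at 0.435 to 0.605. Ciita lay between, at 0.819 to 0.895 with the first pattern and at 0.761 and 0.822 with H2-Oa and H2-Ob. The group means spanned 6.43 for H2-Ob and 5.14 for H2-Oa, and 3.18 (Ciita) to 4.21 (H2-Aa) for the others. Ordered by mean, H2-Ab1 ran from EL-4 through MCA203, both healthy spleens, the C26-GM spleen, the IL-6 culture, 4T1, the C26-GM tumor and the G-CSF culture to fresh marrow, and 7 of the 9 neighbouring groups overlapped. The steps without overlap were those from 4T1 to the C26-GM tumor and from the G-CSF culture to marrow.

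Outside the 8, the genes whose levels were most like theirs differed by pattern. Ifi30, a lysosomal thiol reductase that prepares antigens for class II, was the gene most like H2-Aa, H2-Ab1, H2-Eb1 and H2-DMa (r = 0.924 to 0.943 over 30 arrays), and Itgax most like Cd74 (0.953). H2-Oa was most like Rab30 (0.970), Slc46a3 (0.968) and Cr2, a B cell complement receptor (0.940). H2-Ob was most like B4galt4 (0.960), Tspan33 (0.956) and Tmem26 (0.943), and Ciita like Anxa6 (0.897), Limd1 (0.891) and P2ry10b (0.887). These are the highest coefficients among the 18194 genes once the 8 members and predicted or unnamed transcripts were passed over, and they describe these arrays only.

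Other genes of the class II route, 15 measured of 17 listed, had calls in both directions in every tumor-host group. Counts of rises and falls were 1 and 2 in the C26-GM spleen, 1 and 4 in the C26-GM tumor, 2 and 3 in 4T1, 3 and 4 in EL-4 and 2 and 3 in MCA203, with medians from -0.52 to 0.27. Ctsl, a cathepsin that cuts the invariant chain, rose in all 5 (1.55 to 3.13), and Ctss, the main invariant chain protease of myeloid cells, lay between -0.02 and 0.45. H2-DMb2, the DM beta chain, fell in 4T1 (-1.82 ± 0.23), EL-4 (-1.80 ± 0.23) and MCA203 (-3.35 ± 0.23), where H2-DMa did not, but its copy H2-DMb1 was not measured by a probe set of its own and the probes may read both. Cd83, which keeps class II at the surface, fell in the C26-GM spleen (-4.27 ± 0.33), the C26-GM tumor (-5.18 ± 0.33) and EL-4 (-1.11 ± 0.33) and was at 0.45 ± 0.33 in 4T1 and -0.22 ± 0.33 in MCA203. Marchf1, the ligase that removes class II from the surface, fell in 4T1 (-1.02 ± 0.28, adjusted p = 0.0068) and lay between -0.59 and -0.03 in the other tumor-host groups. In marrow 11 of 15 were lower and 0 higher than in spleen, Ctss by -1.81, Ifi30 by -2.23 and Marchf1 by -1.77, and in culture 6 rose and 2 fell with IL-6 (H2-DMb2 3.27, Ifi30 1.64) and 5 rose and 0 fell with G-CSF (H2-DMb2 1.60).

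Among 20 measured class II regulators the C26-GM tumor had 4 falls and no rise: among them Irf4, a factor of dendritic and B cells, was at -3.39 and Rfx5, a subunit of the X box factor RFX, at -1.71. The counts were 0 and 1 in the C26-GM spleen, 0 and 2 in 4T1, 1 and 3 in EL-4 and 0 and 4 in MCA203, and Irf4 was at -2.86 in 4T1, -2.07 in MCA203 and -0.64 in EL-4. Rfx5 was below 2-fold in the other tumor-host groups, between -0.99 and -0.35. In marrow 0 rose and 7 fell, and in culture 2 rose and 8 fell with IL-6 (Irf4 2.85) and 1 rose and 6 fell with G-CSF (Irf4 2.07), while Rfx5 stayed at 0.16 and 0.03. The 14 genes of the class I route, measured for comparison, had 0 calls by limma in the C26-GM spleen, C26-GM tumor, 4T1 and MCA203, with 8, 10, 5 and 9 at an unadjusted p below 0.05, and medians of -0.47, -0.49, 0.21 and 0.63. In EL-4 2 rose, Calr (1.65) and Erap1 (1.19), and Nlrc5, the class I counterpart of Ciita, was at 0.63. In the C26-GM tumor Nlrc5 was at 0.70 ± 0.21 against spleen where Ciita was at -1.94, and in marrow it fell by 2.08.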

How the data were processed

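CD11b+ cells were profiled on Affymetrix MOE430 2.0 arrays. The deposited values are log2 expression made with RMA, per the submitters' processing notes, and no version is stated in the sources read for this work. Of 45101 probe sets 34958 carried 1 symbol, 932 several and 9211 none in the platform annotation. All 30 arrays entered 1 limma model (R 4.3.3, limma 3.58.1) with 10 group means and no covariate. A gene was called at Benjamini-Hochberg adjusted p below 0.05 over 18194 genes and at least a 2-fold change, and standard errors pool the spread over all groups. The fit was tested on simulated data. The members, marker lists and comparisons were chosen with earlier results of these data known. Named were the 8 members, up to 4 changed genes per list, H2-Ea, Ctss, Ifi30, Marchf1, Cd83, Rfx5, Nlrc5 and the genes most correlated with each member; Calr, Erap1, Ctsl and others follow from those rules, while Itgam, Ptprc, Xist, Eif2s3y, Pax5, Ms4a1 and Xcr1 were added after their values were seen. RMA gives no counts, so precision rests on 3 arrays a group. Alternatives covered scaling, filters, probe sets, array weights, the variance prior, a replicate block and left-out arrays. Scanner files were not used here. Figures were drawn with Python 3.11.15 and matplotlib 3.10.9.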

Additional observations from a re-analysis of the deposited data

Results flagged for a closer look

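The difference between the tumor effects in C57BL/6 models (EL-4 and MCA203 against C57BL/6 spleen) and in BALB/c models (C26-GM and 4T1 tumors against BALB/c spleen) passed the test for 5 members. On the log2 scale it was 2.78 for H2-Ob, 1.24 for H2-Ab1, 1.21 for H2-Aa, 1.21 for H2-Eb1 and 1.18 for Ciita. The separate changes behind it were -6.43 and -5.54 against -2.55 and -3.85 for H2-Ob, and -1.35 and -0.51 against 0.36 and 0.26 for H2-Ab1. Each strain carried its own tumor lines, and of these groups the C26-GM tumor alone had the Xist and Eif2s3y levels of male mice, so strain, tumor line and sex cannot be told apart. The H2-Ob values in the BALB/c infiltrates were below the median of their arrays.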

How the results depend on the processing

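Of 2098 values of the members under alternative settings, 2007 stayed on their side of the threshold, 28 called values were lost, 63 uncalled values passed and 0 called values changed direction, while 28 uncalled values had another sign. The counts of members called that moved by more than 1.5 times were as follows, and the cause was not tested. Without a minimum fold change the count was 5 in 4T1 (3), 4 in MCA203 (2), 7 for 4T1 against the C26-GM tumor (1) and 6 between the cultures (3), with the reported count in brackets. At least as many of all genes pass without that minimum, and their share is not given here. Housekeeping centring gave 3 for the C26-GM tumor against its spleen (6), 0 for 4T1 against the C26-GM tumor, 1 for EL-4 against MCA203 (2) and 5 between the cultures. Beside these, 2.43% of all genes fell in the first comparison, and 5.24%, 3.25% and 0.572% rose in the others, in that order. The centring shifted the median of all genes by -0.41 (EL-4) to 0.176 (C26-GM tumor against spleen). Quantile normalization gave 2 for 4T1 against the C26-GM tumor and 1 for EL-4 against MCA203, the mean of all probe sets 3 and 1, and array weights 2, omission of x_at and s_at probe sets 2 and omission of the third C26-GM arrays 3 for the former. After quantile normalization 7.03% of all genes were higher in 4T1 than in the C26-GM tumor and 3.45% higher in EL-4 than in MCA203. With only the compared groups the count between the cultures was 0. Leaving out 1 array at a time gave 2 to 7 for the C26-GM tumor against its spleen, 1 to 3 for 4T1 against the C26-GM tumor, 1 to 2 for EL-4 against MCA203 and 3 to 6 between the cultures. A group left with 2 arrays borrows its spread from the others. Where no share of all genes stands beside a count, here or above, the count is not read as a result about the members.

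The replicate numbers were not taken as pairs, since in 0 of 13 comparisons did every same-numbered pair deviate together at a correlation above 0.1. Some pairs did, such as replicates 1 and 3 of C26-GM tumor and spleen (0.367 and 0.47) and replicate 1 of the cultures (0.788, against -0.85 and -0.801 for the others). With the replicate number as a block, 1 member passed for 4T1 against the C26-GM tumor, 2 for EL-4 against MCA203 and 114 of all genes between the cultures, against 119 without it, and no count of members moved by over 1.5 times. The settings for the culture array set and for the third C26-GM arrays were chosen after the data had been seen, and the wide culture arrays are 1 a group, so their values carry no replicate check. Dim probe sets, such as those of H2-Ob in infiltrates and of H2-Ob and Ciita in fresh marrow, limit how far down a change can be read.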
